A study of Mus musculus with 12 samples.

Results

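Primary tumours grown from 2 mouse mammary carcinoma lines, 4T07 and 168FARN, were compared gene by gene and exon by exon. The members are the arrays titled by their labels as 4T07 (3 arrays) and 168FARN (3 arrays), 6 of the 12 samples of a series that also holds 3 arrays each of 67NR and 4T1 tumours. Both groups were made in the same way: cells of the line were placed in a mammary fat pad, the host being a female BALB/c mouse of 3 months, and the tumours were removed at a diameter of 1 to 2 cm. The labels give 11 mice for 168FARN and 15 for 4T07. They do not say which or how many animals stand behind an array, so the p-values reflect only how far these samples spread, and that spread may be technical. No drug, engineered allele or transgene is named for either group. Each group is a single cell line, so the line and its metastatic behaviour cannot be told apart. The RNA is that of whole tumours, in which fewer cells of a type and less RNA per cell cannot be told apart.

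The lines descend from 1 spontaneous BALB/c mammary tumour and have long served as steps of a metastatic series. Cells of 168FARN are known to leave the fat pad and lodge in the draining lymph nodes, where they stop. Cells of 4T07 are known to be carried as far as the lung but to form no visible nodules there. Carcinoma cells that spread often give up part of their epithelial character, the adhesion and polarity held by cadherins, tight junctions and keratins, and take on mesenchymal genes under transcription factors of the Twist, Snail and Zeb families. Their growth also depends on the host cells they draw in, among them fibroblasts, vessels, neutrophils and lymphocytes.

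Each array is an exon array, which carries several probesets (small groups of probes) along a gene. The level of a gene is the median of its probesets in log2 signal, so that a difference of 1 is 2-fold; 15025 genes with at least 3 probesets were tested. Levels below 5.08, the 95th percentile of 335 olfactory receptor genes, which mammary tumours have no known use for, lie in the range of the background. Where the mean of a line lay in that range, the change is given as levels, with no fold. Array medians over all probesets lay between 7.21 and 7.57, and gene levels of 2 arrays correlated at a mean of 0.982 within 4T07, 0.981 within 168FARN and 0.935 between the lines. The tissue label was checked against its markers: Krt8, a keratin of simple epithelia, stood at 11.64 ± 0.53 in 4T07 and 11.44 ± 0.09 in 168FARN (SD, n = 3 arrays), and Epcam, an adhesion molecule of carcinoma cells, at 9.82 ± 1.17 and 7.01 ± 0.29, all above background. Krt8 was not typical of epithelial genes in 168FARN. The 48 measured averaged 7.22 in 4T07 and 5.98 in 168FARN, and the median level of all genes over the 12 arrays was 7.39. Krt18, the partner keratin, stood at 11.67 ± 0.75 in 4T07 and 7.22 ± 0.20 in 168FARN. Vim, the intermediate filament of mesenchymal cells, was high in both lines, at 13.32 ± 0.05 and 13.29 ± 0.02.

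Skeletal muscle genes set 2 of the 6 arrays apart. The mean level of 23 muscle genes was 5.46, 5.68 and 6.09 in 4T07 and 5.53, 7.53 and 8.41 in 168FARN, so arrays 2 and 3 of 168FARN stood apart and array 1 did not. Ckm, the muscle creatine kinase, read 6.51, 10.36 and 10.76 in the 168FARN tumours against 6.85, 6.55 and 7.90 in the 4T07 tumours. Acta1, the actin of muscle fibres, read 6.43, 7.51 and 8.20 in 4T07 and 6.86, 9.90 and 11.15 in 168FARN. For each list of genes, the counts or the median change are therefore also given with arrays 2 and 3 of 168FARN left out. In that fit a lone array is assumed to vary like the other groups, and fewer genes can pass.

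Of the 15025 genes, 4248 (28.3%) were called at an adjusted p under 0.05 by limma, 1718 (11.4%) higher in 4T07 and 2530 (16.8%) lower. At least a 2-fold change was seen in 785 of those higher and 790 of those lower. The 3 arrays of one line did not overlap the 3 of the other in 5572 genes (37.1%). The median change over all genes, 4T07 minus 168FARN, was -0.086. These shares are the background against which the counts of each list are read. With array 1 alone in the 168FARN group, 2112 genes were called, 999 higher and 1113 lower.

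**Figure D1:**
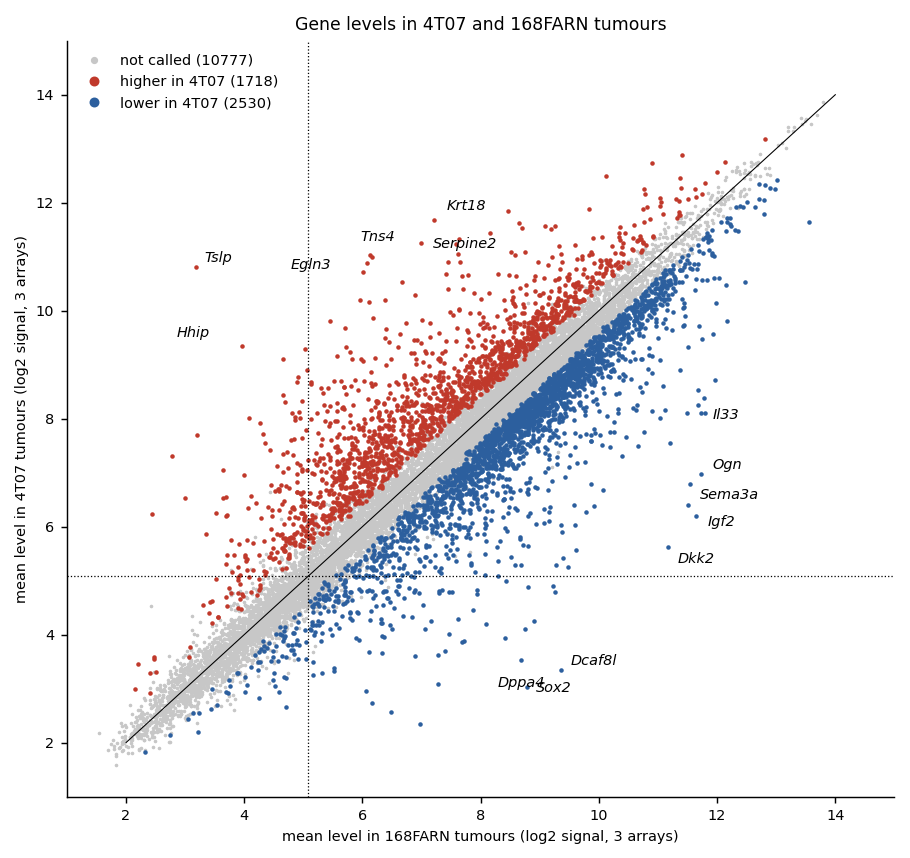
Mean gene level in 168FARN tumours (x axis) against 4T07 tumours (y axis), both in log2 signal over 3 arrays, for 15025 genes; red points were called higher in 4T07, blue points lower, and grey points did not pass the test. The dotted lines mark the background level of 5.08, and the diagonal marks equal levels; Tslp and Hhip lie left of the vertical dotted line, Sox2, Dppa4 and Dcaf8l below the horizontal one.

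The gene that went furthest from background in 4T07 was Tslp, an epithelial cytokine that acts on dendritic cells and type 2 lymphocytes. Its levels were 10.85, 11.32 and 10.23 on the 4T07 arrays and 3.38, 3.48 and 2.70 on the 168FARN arrays (adjusted p = 1.22e-09). Hhip, a membrane protein that binds and holds back hedgehog ligands, read 3.80, 4.01 and 4.07 in the 168FARN tumours against 9.11, 9.54 and 9.42 in the 4T07 tumours (adjusted p = 4.8e-09). In both genes the 168FARN arrays all lay in the background range and the 4T07 arrays all lay above 9. Notum, a secreted enzyme that inactivates Wnt ligands, read 9.13, 9.98 and 8.74 in 4T07 and 4.98, 5.29 and 4.80 in 168FARN (adjusted p = 3.83e-07). Pdcd1lg2, the ligand PD-L2 that engages the checkpoint receptor PD-1, read 8.60, 9.46 and 8.64 on the 4T07 arrays and 4.83, 5.28 and 5.06 on the 168FARN arrays (adjusted p = 1.21e-06). Here 1 of the 3 168FARN arrays stood just above background in each gene, and no array of one line overlapped the other. The membrane protease Tmprss11e (9.11 ± 1.47 against 4.66 ± 0.13), the ephrin receptor Epha1 (8.78 ± 0.49 against 4.90 ± 0.21), the adhesion receptor Adgrg6 (8.68 ± 0.06 against 4.89 ± 0.15) and Morc4 (8.44 ± 0.39 against 4.65 ± 0.42) completed the 8 genes with the highest 4T07 levels among rises from background. Tslp stood at 7.56 ± 0.12 in 4T1 and 2.99 ± 0.13 in 67NR, and Hhip at 10.11 ± 0.19 and 3.77 ± 0.50, given as levels without a test.

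Among genes measured above background in both lines, the large rise with the most even 4T07 readings was that of Tns4, a focal adhesion protein. Its levels were 5.95, 6.51 and 6.02 in the 168FARN tumours against 11.01, 11.00 and 10.95 in the 4T07 tumours (28.4-fold higher, adjusted p = 3.18e-09, change 4.83 with SE 0.19). Egln3, the prolyl hydroxylase that marks hypoxia-inducible factor for decay and is itself one of its targets, read 10.74, 10.99 and 10.90 in 4T07 and 7.23, 5.73 and 5.28 in 168FARN (27.8-fold higher, adjusted p = 6.43e-07). The 3 Egln3 readings in 168FARN spread over almost 2 units while those in 4T07 lay within 0.3. Wfdc2, a secreted epithelial protein, read 10.48, 10.60 and 11.07 on the 4T07 arrays and 5.98, 6.51 and 5.57 on the 168FARN arrays (26-fold higher, adjusted p = 7.19e-08). Krt18, the partner keratin of Krt8, read 7.44, 7.09 and 7.12 in the 168FARN tumours against 11.71, 10.90 and 12.40 in the 4T07 tumours (21.9-fold higher, adjusted p = 4.04e-06). Krt18 therefore differed 21.9-fold while Krt8 read 11.58, 11.14 and 12.21 in 4T07 and 11.44, 11.34 and 11.53 in 168FARN, a change of 0.21 that did not pass the test (adjusted p = 0.651). Serpine2, a secreted inhibitor of thrombin and urokinase, read 11.20, 11.40 and 11.17 on the 4T07 arrays and 6.95, 6.46 and 7.58 on the 168FARN arrays (19.2-fold higher, adjusted p = 8.15e-08).

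The other large rises were of the troponin gene Tnnt2 (20.4-fold), the epithelial surface proteins Gpa33 (18.8-fold) and Plet1 (16.5-fold), Moxd1 (15.9-fold), Serinc2 (14.5-fold), the macrophage elastase Mmp12 (14.2-fold) and the matrix protein Tinagl1 (13-fold). The immunoglobulin genes Ighg1 and Ighg2b, products of plasma cells, were also in this group. Ighg1 had the largest mean rise among genes above background in both lines, 4.90, but the widest spread in 4T07: its levels were 6.84, 5.14 and 6.42 in the 168FARN tumours against 11.27, 12.55 and 9.26 in the 4T07 tumours (adjusted p = 0.00179). Its call was lost with 168FARN array 1 alone, at an adjusted p of 0.0722. Immunoglobulin constant genes are close copies of each other, so their probesets may share signal. Tnnt2, although a troponin of the heart and of embryonic muscle, was high in 4T07, where the muscle list was low, at 9.63, 9.28 and 10.51 in 4T07 and 5.71, 5.01 and 5.64 in 168FARN.

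Among genes above background in both lines, Dkk2 and Igf2 had the deepest falls in 4T07. Dkk2, a modulator of Wnt signalling, read 5.38, 5.86 and 5.62 on the 4T07 arrays and 10.85, 11.68 and 10.99 on the 168FARN arrays (46.9-fold lower, adjusted p = 5.93e-09). Igf2, the fetal insulin-like growth factor, read 12.87, 10.90 and 11.14 in the 168FARN tumours against 6.19, 6.39 and 6.03 in the 4T07 tumours (43.2-fold lower, adjusted p = 6.34e-07). The lowest 168FARN reading of Dkk2 was above its highest 4T07 reading by almost 5 units, and 168FARN array 1, the array low in muscle genes, had the highest Igf2. H19, a long RNA transcribed next to Igf2 and expressed from the other parental copy, went the other way, at 10.54, 9.87 and 11.61 in 4T07 and 6.40, 7.69 and 8.15 in 168FARN (9.61-fold higher, adjusted p = 0.000137). Fgf10, a growth factor made by mesenchyme for neighbouring epithelium, read 5.23, 5.36 and 5.27 on the 4T07 arrays and 9.25, 9.40 and 9.17 on the 168FARN arrays (15.8-fold lower, adjusted p = 3.35e-09). Il33, an alarm cytokine of stromal and epithelial nuclei, read 12.13, 11.71 and 11.34 in the 168FARN tumours against 8.04, 8.39 and 7.88 in the 4T07 tumours (12.3-fold lower, adjusted p = 6.57e-08). Tslp and Il33, both triggers of type 2 immunity, thus stood at opposite ends of the comparison. Cpa3, a protease of mast cells, read 6.08, 6.90 and 6.19 in 4T07 and 9.37, 10.15 and 10.21 in 168FARN (11.5-fold lower, adjusted p = 4.88e-06), with 67NR at 9.87 ± 0.67 and 4T1 at 6.21 ± 0.21.

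The other falls of this size were Aspn, Ogn and Lum, which are small leucine-rich proteoglycans of the matrix, the guidance genes Sema3a, Sema3d, Sema5a and Sema3c, the matrix protein Spon2 (16.6-fold lower) and Sgcd (15.8-fold lower), a sarcoglycan of the muscle membrane. Sgcd read 5.47, 5.25 and 5.55 on the 4T07 arrays and 9.28, 9.75 and 9.17 on the 168FARN arrays, so the 168FARN array low in muscle genes lay between the others. Genes that fell to background in 4T07 included pluripotency factors. The list of stem-cell and developmental factors, which holds Sox2, moved both ways. Of 23 measured, 4 rose, 5 fell and 14 did not pass the test, with a median change of -0.04. With 168FARN array 1 alone in its group the median change was 0.0009. Sox2, a transcription factor of stem cells, read 8.53, 8.65 and 9.15 in the 168FARN tumours against 2.53, 3.04 and 3.52 in the 4T07 tumours (adjusted p = 1.01e-08). Dppa4 and Dppa2, neighbouring genes whose products bind chromatin in early embryos, read 3.23, 3.67 and 3.69 in 4T07 and 8.69, 8.68 and 8.68 in 168FARN (adjusted p = 2.22e-07) and 4.32, 4.40 and 4.04 on the 4T07 arrays and 8.76, 8.99 and 8.94 on the 168FARN arrays (adjusted p = 1.01e-08). All 3 stood below 5.08 in 67NR (3.18 ± 0.38, 4.15 ± 0.65 and 4.90 ± 0.48) and in 4T1 (3.12 ± 0.18, 3.71 ± 0.69 and 4.02 ± 0.14). Dcaf8l (9.37 ± 0.25 in 168FARN against 3.34 ± 0.12 in 4T07), the prostaglandin receptor Ptgfr (9.27 ± 0.75 against 4.79 ± 0.19), the G-protein regulator Rgs17 (9.22 ± 0.52 against 4.91 ± 0.10), Hapln4 (8.80 ± 0.16 against 4.88 ± 0.07) and Tmem74 (8.75 ± 0.21 against 4.11 ± 0.07) completed the 8 genes with the highest 168FARN levels among falls to background.

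**Figure D2:**
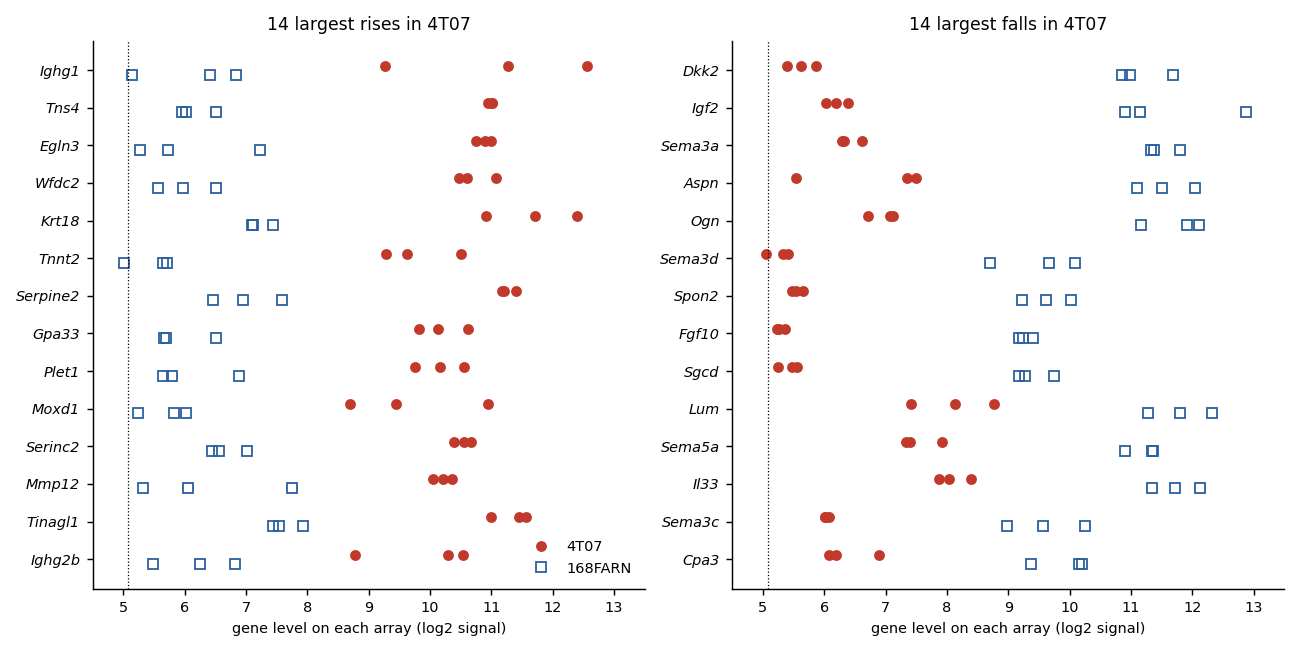
Level of each gene on each array (x axis, log2 signal) for the 14 largest rises (left) and the 14 largest falls (right) in 4T07 among genes above background in both lines; filled circles are the 3 4T07 arrays, open squares the 3 168FARN arrays, and the dotted line is the background level of 5.08. In none of the 28 genes do the 2 lines overlap. They were picked as the largest called changes on these arrays, so this follows largely from the choice. Over all genes tested, 37.1% did not overlap. In 4T07, Ighg1 spreads widest, from 9.26 to 12.55, and Tns4 least, from 10.95 to 11.01.

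Genes of epithelial junctions and keratins were mostly higher in 4T07. Of 48 such genes measured, 31 rose, 3 fell and 14 did not pass the test, with a median change of 0.98; with 168FARN array 1 alone in its group, 20 rose and 1 fell. On average the list read 6.98, 6.91 and 7.78 in 4T07 and 5.94, 5.96 and 6.04 in 168FARN, so the lines did not overlap and 4T07 array 3 was the highest. Cdh1, which encodes the adherens junction protein E-cadherin, read 6.59, 6.45 and 6.74 in the 168FARN tumours against 8.39, 8.20 and 9.32 in the 4T07 tumours (4.13-fold higher, adjusted p = 6.01e-05). Epcam read 9.52, 8.83 and 11.11 in 4T07 and 6.99, 7.31 and 6.73 in 168FARN (7.01-fold higher, adjusted p = 0.00117). Spint2, an inhibitor of membrane serine proteases, read 10.64, 11.03 and 11.46 on the 4T07 arrays and 7.60, 7.69 and 7.55 on the 168FARN arrays (10.8-fold higher, adjusted p = 4.1e-08). In these genes 168FARN was even, while 4T07 array 3 exceeded array 2 by over 1 unit in Cdh1 and over 2 in Epcam. Cdcp1 (8.84-fold), the desmosomal and cornified envelope protein Ppl (6.11-fold), Perp (6.01-fold) and the desmosomal plakoglobin Jup (5.99-fold) also rose. The basal keratin Krt14 rose 3.56-fold, a call lost with 168FARN array 1 alone, whereas Krt5 changed by 0.55 and Krt19 by 0.43, which did not pass. The 3 members that fell were claudins, which seal tight junctions: Cldn9 (-2.57), Cldn6 (-1.49) and Cldn1 (-0.97). The calls of Cldn6 and Cldn1 were lost with 168FARN array 1 alone, and that of Cldn1 also with the 6 arrays fitted alone and without 168FARN array 2 or 3 or 4T07 array 1.

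Milk genes had more rises than falls. Of 16 mammary secretory genes measured, 9 rose, 1 fell and 6 did not pass the test, with a median change of 0.93; with 168FARN array 1 alone in its group, 6 rose and 2 fell. Their mean level was 5.88, 6.93 and 7.06 in 4T07 and 5.31, 5.09 and 5.06 in 168FARN. Csn2, a casein, read 4.68, 4.60 and 4.80 in the 168FARN tumours against 7.06, 8.44 and 9.44 in the 4T07 tumours (adjusted p = 0.000234), and another casein, Csn1s1, read 3.99, 7.35 and 8.27 in 4T07 and 3.40, 2.71 and 2.86 in 168FARN (adjusted p = 0.00362, lost with 168FARN array 1 alone). The casein readings differed by over 2 units between 4T07 arrays, highest on array 3, and Csn1s1 was below background on 4T07 array 1. Their part in the epithelial rises was not tested. Of 16 luminal mammary factors, 5 rose and 1 fell (3 rose and 0 fell with 168FARN array 1 alone). The transcription factor Gata3, which keeps luminal cells differentiated, read 9.92, 10.41 and 10.29 on the 4T07 arrays and 7.54, 7.94 and 8.54 on the 168FARN arrays (4.6-fold higher, adjusted p = 9.8e-06). Gata3 is also counted in the T and NK cell list. Esr1, the oestrogen receptor, changed by -0.76, a call lost without 4T07 array 2 and with 168FARN array 1 alone, and the progesterone receptor Pgr was near background in both lines, at 5.20 ± 0.64 and 5.04 ± 0.27.

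The mesenchymal list moved both ways. Of 27 genes of mesenchymal cells or of the switch to them measured, 7 rose, 8 fell and 12 did not pass the test, with a median change of 0.03; with 168FARN array 1 alone in its group, 4 rose and 7 fell. Its deepest falls were of transcription factors. Prrx1 read 11.88, 11.62 and 11.51 in the 168FARN tumours against 8.32, 7.81 and 8.62 in the 4T07 tumours (10.7-fold lower, adjusted p = 7.61e-08). Twist1 read 6.90, 7.13 and 7.89 in 4T07 and 10.36, 10.55 and 10.26 in 168FARN (8.45-fold lower, adjusted p = 1.33e-06). Twist2 fell by 1.90, Snai2 by 1.82 and Zeb1 by 1.60, each without overlap between the lines. Snai1 (0.40) and Zeb2 (0.35), the paralogues of the last pair, did not pass the test. Of the structural genes, Vim changed by 0.03 and Fn1, which encodes fibronectin, by 0.02, neither past the test, and N-cadherin (Cdh2) was low in both at 5.63 ± 0.04 and 5.16 ± 0.40. Tnc, the matrix protein tenascin-C, rose, at 10.88, 9.88 and 11.22 on the 4T07 arrays and 7.89, 7.25 and 8.20 on the 168FARN arrays (7.37-fold higher, adjusted p = 2.11e-05). S100a4, a calcium-binding protein often used as a mark of motile fibroblast-like cells, fell 5.59-fold, and Cdh11, a cadherin of mesenchyme, rose 3.34-fold.

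Fibroblast markers and matrix genes were divided too. Of 24 fibroblast markers measured, 5 rose, 9 fell and 10 did not pass the test, with a median change of -0.39; with 168FARN array 1 alone in its group, 3 rose and 9 fell. Without 168FARN array 1, or with genes below background left out of the test, 8 rose. Dcn, the proteoglycan decorin that binds collagen, read 13.34, 13.69 and 13.62 in the 168FARN tumours against 11.55, 11.79 and 11.61 in the 4T07 tumours (3.73-fold lower, adjusted p = 9.29e-06). Lum (lumican) read 8.13, 7.41 and 8.76 in 4T07 and 11.80, 12.32 and 11.28 in 168FARN (13-fold lower, adjusted p = 2.05e-06), and Ogn read 6.72, 7.13 and 7.08 on the 4T07 arrays and 11.16, 12.11 and 11.91 on the 168FARN arrays (27-fold lower, adjusted p = 1.67e-07). Cd34, a surface sialomucin of stromal and vascular cells, read 11.68, 12.19 and 12.02 in the 168FARN tumours against 8.58, 8.33 and 9.21 in the 4T07 tumours (9.54-fold lower, adjusted p = 8.1e-07). All 4 were lower on each 4T07 array than on any 168FARN array. The receptor Pdgfrb fell 2.51-fold, while the surface protein Thy1 rose 2.46-fold and the elastic fibre protein Fbln2 4.14-fold. Thy1 is also counted in the T and NK cell list. The contractile markers Acta2 (0.73) and Tagln (1.25) and the matrix protein Postn (0.85) did not pass the test. Of 46 genes of collagens and matrix assembly measured, 9 rose, 16 fell and 21 did not pass the test, with a median change of -0.15; with 168FARN array 1 alone in its group, 3 rose and 14 fell. Without 168FARN array 1, 14 rose. Col1a2, a chain of the main fibrillar collagen, rose, at 11.30, 10.53 and 11.33 in 4T07 and 9.51, 8.93 and 9.67 in 168FARN (3.22-fold higher, adjusted p = 0.000391), whereas Col3a1 changed by -0.50 and did not pass.

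Extracellular proteases and their inhibitors had large changes in both directions. Of 45 members measured, 17 rose, 9 fell and 19 did not pass the test, with a median change of 0.31; with 168FARN array 1 alone in its group, 11 rose and 9 fell. Mmp13, a collagenase, read 9.48, 8.69 and 9.82 on the 4T07 arrays and 7.08, 6.18 and 6.52 on the 168FARN arrays (6.67-fold higher, adjusted p = 2.57e-05). The macrophage elastase Mmp12 read 7.75, 6.06 and 5.32 in the 168FARN tumours against 10.22, 10.04 and 10.36 in the 4T07 tumours (14.2-fold higher, adjusted p = 0.000344), with 168FARN array 1 the highest of its line. Timp3, a matrix-bound metalloprotease inhibitor, read 10.38, 10.70 and 10.14 in 4T07 and 7.98, 6.82 and 7.52 in 168FARN (7.82-fold higher, adjusted p = 2.45e-06), and Slpi, an inhibitor of neutrophil elastase, rose 4.96-fold. Both proteases and inhibitors were thus among those that rose. The serine protease Prss22 rose 12-fold. The gelatinase Mmp9 read 10.34, 9.40 and 10.68 on the 4T07 arrays and 7.93, 8.22 and 10.28 on the 168FARN arrays and did not pass (adjusted p = 0.0565), 168FARN array 3 lying within the range of 4T07, and the membrane metalloprotease Mmp14 changed by -0.13. Mmp2 (-1.71) and Adamts1 (-2.04) fell, both named after their values were seen.

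**Figure D3:**
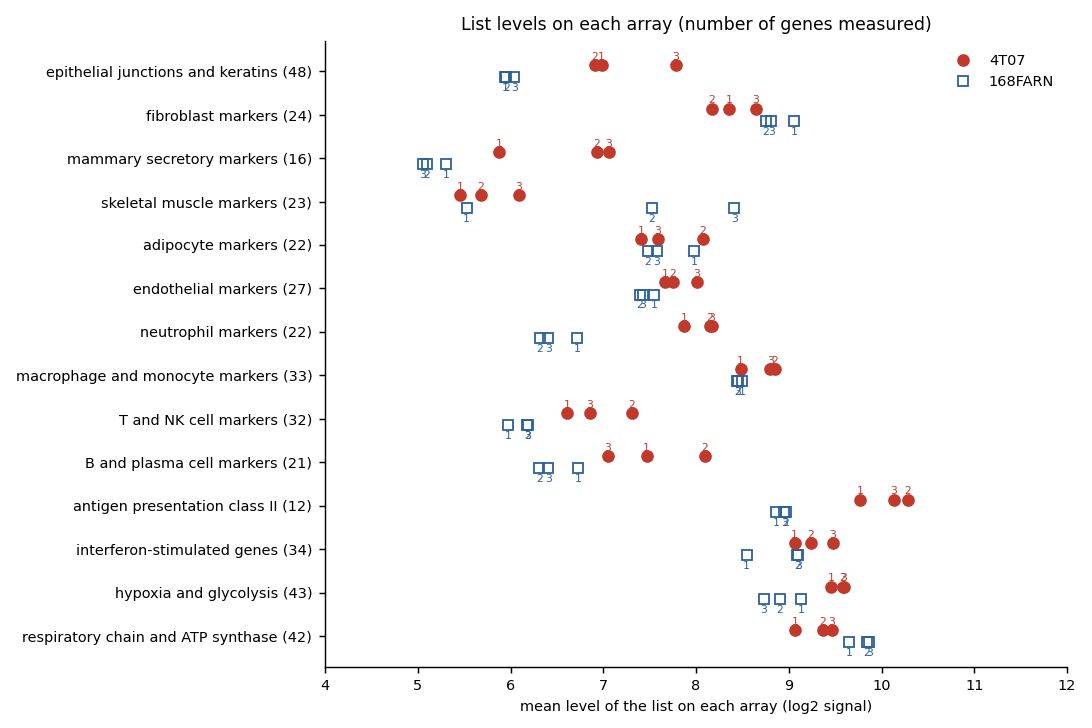
Mean level of 14 gene lists on each array (x axis, log2 signal; the number of genes measured is given beside each list); filled circles are 4T07, open squares 168FARN, and the small digits are the array numbers of the labels. The lines overlap in the adipocyte, macrophage and monocyte, interferon-stimulated and skeletal muscle lists, and in none of the other lists shown. The skeletal muscle list is high on 168FARN arrays 2 and 3 only.

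Neutrophil genes gave the largest share of rises of any list with at least 12 members measured. Of 22 neutrophil markers measured, 18 rose, 0 fell (0 lower at an unadjusted p under 0.05) and 4 did not pass the test, with a median change of 1.41; with 168FARN array 1 alone in its group, 12 rose and 0 fell. Their mean level was 7.87, 8.15 and 8.17 in 4T07 and 6.72, 6.31 and 6.41 in 168FARN, against 11.4% of all genes called higher. S100a8, a calcium-binding protein that fills neutrophil cytosol, read 7.32, 6.96 and 6.70 in the 168FARN tumours against 9.42, 9.42 and 9.35 in the 4T07 tumours (5.29-fold higher, adjusted p = 0.000507), and its partner S100a9 read 8.86, 8.23 and 8.59 in 4T07 and 6.25, 4.92 and 4.73 in 168FARN (9.59-fold higher, adjusted p = 4.4e-05). Ngp, a granule protein, read 7.74, 8.23 and 8.08 on the 4T07 arrays and 4.69, 3.82 and 3.76 on the 168FARN arrays (adjusted p = 1.93e-06). Within 168FARN, array 1 was the highest in all 3 of these genes, and it was still below every 4T07 array. Padi4, the enzyme that citrullinates histones in neutrophils, rose 10.6-fold, and the receptor Csf3r, through which granulocyte colony-stimulating factor acts, 2.85-fold. Lcn2, which carcinoma cells also make, rose 7.93-fold. The factor itself, Csf3, read 4.98, 5.62 and 5.73 in the 168FARN tumours against 7.09, 6.84 and 7.30 in the 4T07 tumours (3.1-fold higher, adjusted p = 7.18e-05), and the neutrophil chemokine Cxcl2 read 8.72, 8.00 and 8.27 in 4T07 and 7.08, 5.52 and 6.12 in 168FARN (4.25-fold higher, adjusted p = 0.00151, lost with 168FARN array 1 alone).

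Macrophage genes did not move as a block. Of 33 macrophage and monocyte markers measured, 9 rose, 7 fell and 17 did not pass the test, with a median change of 0.00; with 168FARN array 1 alone in its group, 5 rose and 5 fell. The defining markers Csf1r, Cd68 and Mrc1 changed by 0.13, -0.19 and -0.28 and did not pass the test. Arg1, the arginase of alternatively activated macrophages and suppressive myeloid cells, read 11.33, 11.39 and 11.00 on the 4T07 arrays and 8.66, 7.27 and 6.83 on the 168FARN arrays (12.6-fold higher, adjusted p = 1.82e-05). Nos2, the inducible nitric oxide synthase that competes with it for arginine, read 5.90, 5.77 and 5.75 in the 168FARN tumours against 8.74, 8.45 and 8.61 in the 4T07 tumours (6.92-fold higher, adjusted p = 1.19e-06). Both enzymes of arginine use rose, by different margins. Itgax, an integrin of dendritic cells and some macrophages, rose 3.71-fold, and the scavenger receptor Cd163 2.36-fold. Vsig4, a complement receptor of resident macrophages, fell from 6.23 ± 0.18 to the background range, 4.52 ± 0.06.

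T and NK cell markers had rises and no falls among their calls with all arrays fitted. Of 32 T and NK cell markers measured, 18 rose, 0 fell (0 lower at an unadjusted p under 0.05) and 14 did not pass the test, with a median change of 0.82; with 168FARN array 1 alone in its group, 12 rose and 0 fell. Without 168FARN array 1, 17 rose and 1 fell. Their mean level was 6.61, 7.31 and 6.86 in 4T07 and 5.97, 6.18 and 6.18 in 168FARN. Cd8a, the coreceptor of cytotoxic T cells, read 8.26, 9.57 and 8.76 in 4T07 and 6.70, 5.81 and 5.94 in 168FARN (6.53-fold higher, adjusted p = 0.000459). Cd3e, a chain of the T cell receptor complex, read 7.93, 8.24 and 7.89 on the 4T07 arrays and 6.50, 6.65 and 6.79 on the 168FARN arrays (2.58-fold higher, adjusted p = 0.000221). Each 4T07 array exceeded each 168FARN array in both, and 4T07 array 2 was the highest. Ifng, the cytokine interferon gamma, read 5.55, 4.79 and 4.52 in the 168FARN tumours against 6.20, 6.66 and 6.31 in the 4T07 tumours (adjusted p = 0.00196, lost with 168FARN array 1 alone). The cytotoxic effector Prf1 (0.10) and the regulatory T cell factor Foxp3 (-0.01) did not pass. Granzyme B (Gzmb) changed by 0.47, a call lost without 168FARN array 1, 168FARN array 2 or 4T07 array 2, among other settings. Of 21 B and plasma cell markers measured, 9 rose, 1 fell and 11 did not pass the test, with a median change of 1.03; with 168FARN array 1 alone in its group, 3 rose and 0 fell. Without 4T07 array 2, 5 rose. The member that fell, the signalling adaptor Blnk (-0.64), lost its call without 168FARN array 2 or 3 or 4T07 array 1 or 3. Jchain, which joins secreted antibodies into polymers, read 8.93, 9.82 and 8.63 in 4T07 and 6.38, 5.86 and 6.40 in 168FARN (7.53-fold higher, adjusted p = 0.000101), and the B cell markers Cd79a (0.42) and Ms4a1 (2.21) did not pass.

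Few endothelial and adipocyte genes were called. Of 27 endothelial markers measured, 5 rose, 0 fell (1 lower at an unadjusted p under 0.05) and 22 did not pass the test, with a median change of 0.28; with 168FARN array 1 alone in its group, 3 rose and 1 fell. Without 168FARN array 2, 3 rose and 1 fell, without 4T07 array 3 there were 3 rises, and without 4T07 array 2 there was 1 fall. The vessel markers Cdh5 (0.44) and Kdr (0.12) did not pass the test. Esm1, a proteoglycan of the tip cells of growing vessels, read 11.01, 11.46 and 10.25 on the 4T07 arrays and 7.55, 7.26 and 7.52 on the 168FARN arrays (11-fold higher, adjusted p = 7.96e-06), against 7.58 ± 0.65 in 4T1. None of 22 adipocyte markers was called by limma, 0 also at an unadjusted p under 0.05, 0 rose and 0 fell with 168FARN array 1 alone, and without 168FARN array 3 a single member fell; Adipoq (adiponectin) read 7.84, 7.42 and 7.58 in the 168FARN tumours against 6.87, 7.71 and 6.93 in the 4T07 tumours and Fabp4 7.13, 8.09 and 7.37 in 4T07 and 7.57, 6.86 and 7.46 in 168FARN. Of 23 muscle markers 7 fell and 16 did not pass, 22 fell without 168FARN array 1, 3 without 4T07 array 1 or 2, and 1 without 168FARN array 2 or 3. With 168FARN array 1 alone 1 fell.

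Most class II antigen presentation genes rose in 4T07. Of 12 genes measured, 8 rose, 1 fell and 3 did not pass the test, with a median change of 1.55; with 168FARN array 1 alone in its group, 8 rose and 1 fell. Cd74, the invariant chain that guides class II molecules, read 12.20, 12.67 and 12.59 on the 4T07 arrays and 10.22, 10.08 and 10.04 on the 168FARN arrays (5.18-fold higher, adjusted p = 1.77e-06). Ciita, the transactivator that switches the class II genes on, read 6.29, 6.06 and 6.45 in the 168FARN tumours against 8.02, 8.37 and 8.53 in the 4T07 tumours (4.1-fold higher, adjusted p = 1.63e-05). H2-Ab1 (3.27-fold), H2-Eb1 (3.58-fold) and H2-Aa (3.1-fold), which encode class II chains, rose with them, and so did the peptide exchange factor H2-DMa (4.11-fold). The member that fell was the costimulatory ligand Cd80 (3.24-fold lower). Of 16 class I genes measured, 5 rose and 0 fell by limma (0 lower at an unadjusted p under 0.05), and 5 rose and 0 fell with 168FARN array 1 alone. The largest rise was that of H2-Q7 (1.89-fold). B2m (0.03), H2-K1 (0.08) and H2-D1 (-0.09) did not pass. The peptide transporter Tap1 rose 1.83-fold. Class I and class II genes are families of close copies, so their probesets may share signal.

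Interferon-stimulated genes rose in part. Of 34 interferon-stimulated genes measured, 12 rose, 1 fell and 21 did not pass the test, with a median change of 0.14; with 168FARN array 1 alone in its group, 12 rose and 0 fell. The member that fell, Ifit2 (-0.58), lost its call without 168FARN array 2 or 3 or any of the 4T07 arrays, and without 168FARN array 1 there were 3 falls. Gbp4, a guanylate-binding GTPase, read 11.52, 11.39 and 11.68 in 4T07 and 8.51, 8.72 and 8.87 in 168FARN (7.11-fold higher, adjusted p = 6.59e-06). The GTPases Igtp and Iigp1 rose 3.18-fold and 2.93-fold, and the transcription factor Irf1 2.53-fold. The antiviral GTPase Mx1 read 6.47, 6.45 and 7.14 on the 4T07 arrays and 6.69, 7.25 and 7.23 on the 168FARN arrays and did not pass. GTPases of these families and Irf1 are known to respond strongly to interferon gamma, and Mx1 mainly to type I interferon. Cxcl9, a chemokine that binds the receptor Cxcr3 on T cells, read 6.91, 6.99 and 7.51 in the 168FARN tumours against 9.69, 9.79 and 9.85 in the 4T07 tumours (6.24-fold higher, adjusted p = 8.73e-05), and Cxcl11 rose 2.7-fold.

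Promoter sequence is shown for members of that list that rose, because transcription of such genes is known to respond to interferon through a short promoter element. The 250 bases before each gene start (RefSeq, build GRCm38.p6) were searched on both strands for the letters GAAA, any 2 bases and GAAA again, a core of interferon-stimulated response elements. It was found in 3 of the 8 risers with a sequence (37.5%), in 4 of the 15 other members (26.7%) and in 390 of 12017 tested genes (3.25%). The risers with a match, read on the strand of the gene, in each case the plus strand, were Igtp (chr11:58199502-58199551), Gbp2 (chr3:142620584-142620633) and Gbp3 (chr3:142559979-142560028). Capitals mark the matching letters, which in Gbp2 and Gbp3 lie on the opposite strand and so read as the reverse complement.
Igtp: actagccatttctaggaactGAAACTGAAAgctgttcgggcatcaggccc
Gbp2: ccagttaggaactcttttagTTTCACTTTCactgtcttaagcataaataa
Gbp3: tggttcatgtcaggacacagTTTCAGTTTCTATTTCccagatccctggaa
The match in Igtp starts 34 bases before the gene start, that in Gbp2 59 bases and the overlapping matches in Gbp3 45 and 39 bases. Gbp2 read 11.60, 11.70 and 11.60 in 4T07 and 10.44, 11.10 and 10.72 in 168FARN and Gbp3 10.39, 10.59 and 10.49 on the 4T07 arrays and 9.07, 9.97 and 9.62 on the 168FARN arrays, rises of 1.84-fold and 1.91-fold whose calls were lost without 168FARN array 1 (adjusted p = 0.0641 and 0.064). The share among risers lay nearer to that among the other members than to that among all genes tested.

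Among chemokines, 11 of 30 rose and 4 fell (8 rose and 3 fell with 168FARN array 1 alone). Ccl25 (-0.97) and Ppbp (-0.78) were among those that fell, and the call of Ccl25 was lost without 168FARN array 2 or 4T07 array 1 or 2 and with 168FARN array 1 alone. Ccl2, the main attractant of monocytes, read 9.61, 10.67 and 9.46 in the 168FARN tumours against 7.76, 7.97 and 7.72 in the 4T07 tumours (4.28-fold lower, adjusted p = 5.61e-05), and Ccl7, which shares its receptor, fell 3.55-fold. Both were lower on every 4T07 array. Ccl8 rose 3.51-fold (lost with 168FARN array 1 alone) and Ccl24, an attractant of eosinophils, 2.75-fold. Cxcl12, which guides cells bearing Cxcr4, changed by 0.04 and did not pass. Of 27 cytokines and colony-stimulating factors, 11 rose and 5 fell, 7 rose and 4 fell with 168FARN array 1 alone, and 3 fell without 168FARN array 1 or 4T07 array 1. Il1b, the inflammatory interleukin 1 beta, read 10.69, 9.65 and 10.61 in 4T07 and 7.95, 8.45 and 8.04 in 168FARN (4.51-fold higher, adjusted p = 2.63e-05), and Il1a went from background, 3.63 ± 0.33, to 7.05 ± 0.28. Il16, a chemoattractant for CD4+ cells, read 6.28, 6.37 and 6.15 on the 4T07 arrays and 10.01, 9.73 and 9.60 on the 168FARN arrays (11.4-fold lower, adjusted p = 8.73e-09). Of 21 complement genes 6 rose and 3 fell (5 rose and 1 fell with 168FARN array 1 alone), with C4b 5.4-fold higher, C3 2.28-fold higher and the lectin pathway protease Masp1 5.11-fold lower.

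Genes of the hypoxia response and glycolysis had more rises than falls in 4T07, and about as many were not called as were. Of 43 such genes measured, 16 rose, 5 fell and 22 did not pass the test, with a median change of 0.37; with 168FARN array 1 alone in its group, 7 rose and 2 fell. On average the list read 9.45, 9.58 and 9.60 in 4T07 and 9.14, 8.90 and 8.73 in 168FARN, without overlap. Car9, a carbonic anhydrase that is among the most widely used marks of hypoxic tumour, read 8.86, 7.79 and 6.67 in the 168FARN tumours against 9.64, 9.81 and 9.45 in the 4T07 tumours (3.64-fold higher, adjusted p = 0.00322, lost with 168FARN array 1 alone). Slc16a3, the lactate exporter, read 9.92, 9.92 and 10.02 in 4T07 and 8.48, 7.91 and 7.52 in 168FARN (3.94-fold higher, adjusted p = 0.000123). Pfkfb3, which raises the activator of phosphofructokinase, read 9.38, 9.53 and 9.43 on the 4T07 arrays and 7.73, 7.85 and 7.90 on the 168FARN arrays (3.07-fold higher, adjusted p = 2.35e-06). In Car9 the 168FARN arrays spread over 2 units and array 1 came nearest to 4T07. Pdk1, the kinase that keeps pyruvate out of mitochondria, rose 3.39-fold (lost with 168FARN array 1 alone), the enolase Eno2 7.16-fold and the aldolase Aldoc 7.62-fold. Hif1a, the oxygen-regulated subunit, which is controlled mainly at the protein, changed by -0.04 and did not pass. The 5 members that fell were Adm, Pfkm, Stc2, Plod2 and Egln2, with changes between -1.11 and -0.57, and 3 fell without 168FARN array 2, 4T07 array 1 or 4T07 array 2. The calls of Adm, Stc2 and Egln2 were lost with 168FARN array 1 alone.

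The promoters of the risers were searched in the same windows and on both strands for ACGTG and GCGTG, the core letters that hypoxia-inducible factors bind. At least 1 was found in 11 of 13 risers with a sequence (84.6%), in 22 of 26 other members (84.6%), in 54.0% of 12017 tested genes and in 38.6% of all promoters of the table. Windows are shown for risers named above, read on the strand of the gene, with the matching letters in capitals. They are Egln3 (minus strand, chr12:54204079-54204123), Car9 (plus strand, chr4:43506988-43507025), Slc16a3 (plus strand, chr11:120949020-120949064), Pfkfb3 (minus strand, chr2:11502118-11502162) and Pdk1 (plus strand, chr2:71873126-71873170).
Egln3: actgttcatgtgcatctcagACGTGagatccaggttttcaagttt
Car9: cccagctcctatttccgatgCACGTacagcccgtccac
Slc16a3: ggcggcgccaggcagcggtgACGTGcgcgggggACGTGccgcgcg
Pfkfb3: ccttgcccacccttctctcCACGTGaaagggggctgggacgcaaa
Pdk1: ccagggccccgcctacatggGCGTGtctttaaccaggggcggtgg
The match in Egln3 starts 229 bases before the gene start and that in Pdk1 78 bases. Slc16a3 holds ACGTG at 27 and again at 14 bases before the start, and Car9 holds it on the opposite strand at 18 bases. In Pfkfb3, at a start listed by RefSeq beside another, the letters match on both strands, 53 and 52 bases before. Risers and other members of the list held the letters equally often, so a match did not separate them.

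Respiratory chain genes had falls and no rises among their calls. Of 42 genes of the respiratory chain and ATP synthase measured, 0 rose, 21 fell and 21 did not pass the test, with a median change of -0.48; with 168FARN array 1 alone in its group, 0 rose and 5 fell. Over all genes 16.8% were lower. Most of the falls were small, and 4 were at least 2-fold. Ndufa9, a subunit of complex I, stood at 9.16 ± 0.21 in 4T07 and 10.40 ± 0.15 in 168FARN (2.36-fold lower, adjusted p = 5.77e-05). Ndufs8, an iron-sulphur subunit, read 10.49, 11.01 and 10.86 in the 168FARN tumours against 9.45, 9.60 and 9.95 in the 4T07 tumours (2.17-fold lower, adjusted p = 0.000355). Ndufs1, the largest subunit, fell 1.86-fold. The 2 lines did not overlap in any of these. Without 4T07 array 1, 13 fell. The list's mean level was 9.07, 9.36 and 9.47 in 4T07 and 9.65, 9.84 and 9.87 in 168FARN. Muscle markers read 5.46, 5.68 and 6.09 in 4T07 and 5.53, 7.53 and 8.41 in 168FARN. Muscle fibres are rich in mitochondria, and the part of muscle in the difference was not tested.

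**Figure D4:**
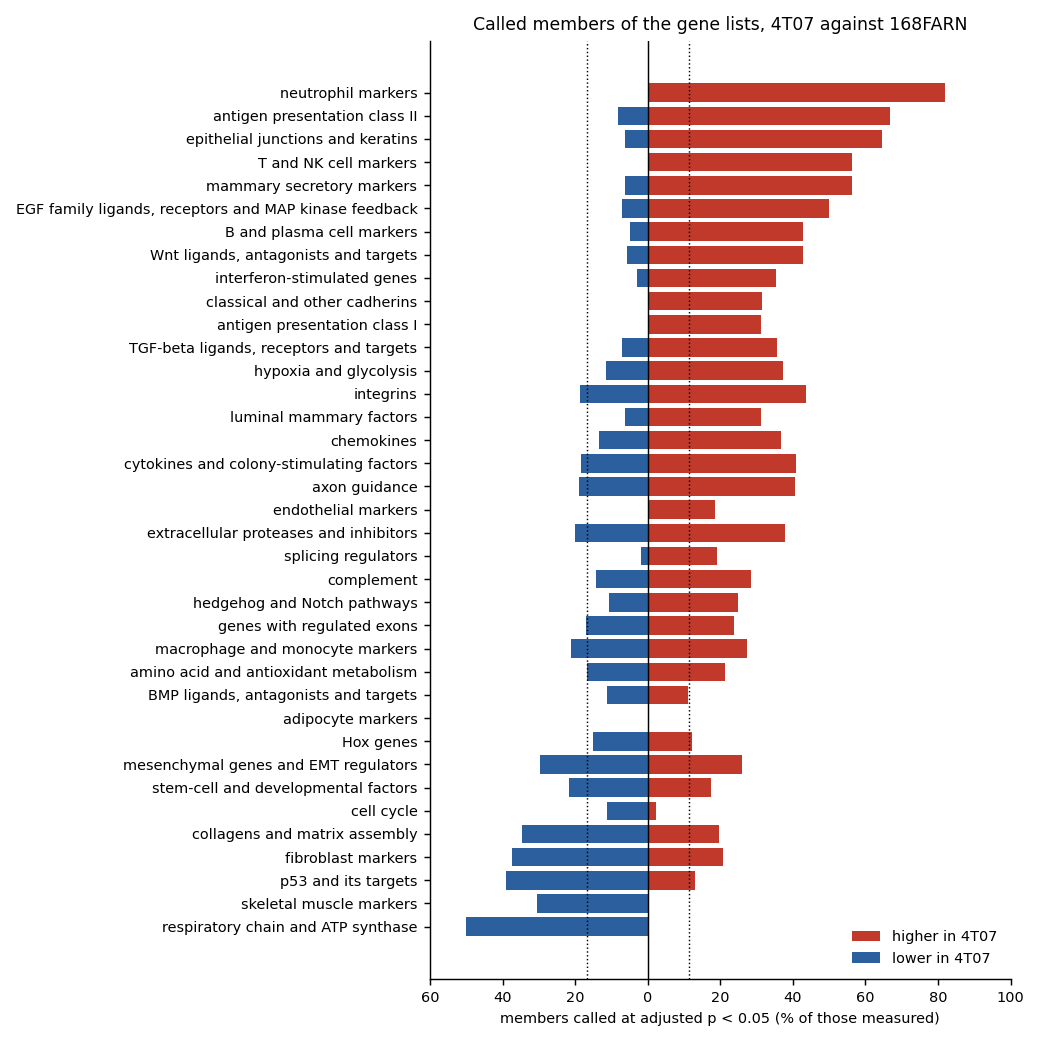
Share of the measured members of each list (at least 12 measured) that were called at an adjusted p under 0.05, higher in 4T07 to the right (red) and lower to the left (blue), in percent; the dotted lines mark the shares over all genes, 11.4% higher and 16.8% lower. Neutrophil markers reach furthest to the right (18 of 22) and respiratory chain genes furthest to the left (21 of 42), and adipocyte markers have no bar.

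Components of Wnt signalling changed on both sides of the pathway. Of 35 Wnt ligands, antagonists and targets measured, 15 rose, 2 fell and 18 did not pass the test, with a median change of 0.46; with 168FARN array 1 alone in its group, 7 rose and 2 fell. The receptors Fzd6 and Ror1 rose: Fzd6 read 9.32, 9.13 and 10.02 in 4T07 and 6.68, 6.10 and 6.34 in 168FARN (8.67-fold higher, adjusted p = 5.38e-07) and Ror1 8.14, 8.43 and 8.16 on the 4T07 arrays and 5.30, 5.40 and 5.66 on the 168FARN arrays (6.91-fold higher, adjusted p = 2.22e-07). The ligand Wnt10b rose 2.49-fold. Among antagonists, Notum and Sfrp1 (3-fold) rose while Dkk2 fell. Axin2, a target that reports canonical signalling, read 7.44, 7.02 and 7.30 in the 168FARN tumours against 5.86, 6.07 and 6.03 in the 4T07 tumours (2.4-fold lower, adjusted p = 2.46e-05), lower on each 4T07 array. Dkk2 and Axin2 were the members that fell, and without 4T07 array 3 there were 4.

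Hedgehog and Notch genes also moved both ways. Of 28 genes measured, 7 rose, 3 fell and 18 did not pass the test, with a median change of 0.26; with 168FARN array 1 alone in its group, 4 rose and 3 fell. Beside Hhip, the coreceptor Cdon rose, at 10.58, 11.02 and 10.36 in 4T07 and 8.34, 8.41 and 8.66 in 168FARN (4.54-fold higher, adjusted p = 1.91e-06), and the coreceptor Gas1 fell, at 7.69, 7.39 and 8.15 on the 4T07 arrays and 10.14, 10.52 and 10.11 on the 168FARN arrays (5.71-fold lower, adjusted p = 7.42e-07). Gli1, a target and effector of hedgehog signalling, fell 1.81-fold, whereas the receptor Ptch1 (0.50) and the transducer Smo (0.25) did not pass. The receptor Notch1 rose 3.64-fold, its modifier Lfng 1.95-fold, and its target Hey1 fell 1.77-fold.

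In the TGF-beta pathway more genes rose than fell, and most were not called. Of 28 such genes measured, 10 rose, 2 fell and 16 did not pass the test, with a median change of 0.50; with 168FARN array 1 alone in its group, 8 rose and 1 fell. Ccn2, the matrix-associated target also known as connective tissue growth factor, read 8.49, 8.10 and 7.87 in the 168FARN tumours against 11.42, 11.72 and 11.18 in the 4T07 tumours (9.74-fold higher, adjusted p = 2.58e-07). Pmepa1, a target that dampens the pathway, read 11.78, 12.05 and 11.82 in 4T07 and 9.71, 10.11 and 9.66 in 168FARN (4.16-fold higher, adjusted p = 8.94e-07). The signal transducer Smad3 rose 2.32-fold, the ligand subunit Inhba 2.42-fold and the latency proteins Ltbp2 and Ltbp3 2.38-fold and 2.73-fold. The coreceptor Tgfbr3 fell 2.98-fold, and the other fall, of Ltbp1 (-0.45), lost its call without any one 168FARN array and without 4T07 array 1 or 2. In the BMP list 3 of 27 rose and 3 fell, and 5 rose without 168FARN array 3. Neither share exceeded that over all genes, of which 11.4% were higher and 16.8% lower. The median change of the BMP list was 0.10, and 0.06 with 168FARN array 1 alone in its group. Grem1, a secreted BMP antagonist, read 7.22, 7.09 and 8.19 on the 4T07 arrays and 11.21, 10.62 and 10.16 on the 168FARN arrays (8.95-fold lower, adjusted p = 1.91e-05), and the protease Bmp1, which processes procollagen, rose 3.66-fold.

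Genes of the EGF family and of feedback on MAP kinases rose in 14 of 28 cases and fell in 2 (8 rose and 1 fell with 168FARN array 1 alone). Tgfa, a ligand of the EGF receptor, read 5.92, 5.68 and 5.48 in the 168FARN tumours against 8.72, 8.29 and 8.74 in the 4T07 tumours (7.4-fold higher, adjusted p = 1.33e-07), and another ligand, Ereg, fell 3.13-fold. The receptor Egfr rose 2.2-fold (lost with 168FARN array 1 alone). Dusp4, a phosphatase of MAP kinases that the pathway is known to induce, read 9.06, 9.10 and 9.14 in 4T07 and 6.37, 5.76 and 7.33 in 168FARN (6.12-fold higher, adjusted p = 2.23e-05), and Spry1, a brake on receptor signalling, read 9.55, 9.96 and 10.40 on the 4T07 arrays and 7.34, 7.37 and 7.73 on the 168FARN arrays (5.63-fold higher, adjusted p = 1.64e-06). With the 6 arrays fitted alone, 8 of this list rose.

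Axon guidance genes held some of the deepest falls. Of 42 genes measured, 17 rose, 8 fell and 17 did not pass the test, with a median change of 0.23; with 168FARN array 1 alone in its group, 14 rose and 5 fell. Sema3a, a secreted semaphorin that repels axons and endothelial cells, read 11.33, 11.38 and 11.80 in the 168FARN tumours against 6.29, 6.32 and 6.61 in the 4T07 tumours (34.2-fold lower, adjusted p = 1.46e-09). Sema3c (11.8-fold lower), Sema3d (18.7-fold lower), Sema5a (12.6-fold lower) and the receptor Plxna2 (4.3-fold lower) fell with it. Sema3f, of the same class, went the other way, at 10.27, 10.63 and 10.33 in 4T07 and 7.87, 7.58 and 7.64 in 168FARN (6.56-fold higher, adjusted p = 1.67e-07), and the receptor Plxnb1 rose 5.33-fold. The falls of Sema3a, Sema3c, Sema3d and Sema5a were each larger than the largest rise, that of Sema3f.

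Integrins were called in both directions. Of 16 measured, 7 rose and 3 fell, 6 rose and 2 fell with 168FARN array 1 alone, and 1 fell without 168FARN array 1, 4T07 array 1 or 4T07 array 2. Itga2, a collagen receptor subunit, read 8.60, 7.73 and 9.45 on the 4T07 arrays and 5.75, 5.47 and 5.82 on the 168FARN arrays (7.54-fold higher, adjusted p = 1.74e-05), and Itga3, a laminin receptor subunit, read 9.13, 8.90 and 9.55 in the 168FARN tumours against 11.43, 11.30 and 11.78 in the 4T07 tumours (4.96-fold higher, adjusted p = 1.09e-06). Itga6 and Itgb4, which pair in the hemidesmosome, rose 3.55-fold and 1.94-fold. The leukocyte subunit Itgb2 rose 3.23-fold, and Itgb5 fell 2.08-fold. Of 19 cadherins and catenins 6 rose and 0 fell by limma (0 lower at an unadjusted p under 0.05), 3 rose and 0 fell with 168FARN array 1 alone, and 1 fell without 168FARN array 2.

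Few proliferation genes were called. Of 44 cell cycle genes measured, 1 rose, 5 fell and 38 did not pass the test, with a median change of -0.16; with 168FARN array 1 alone in its group, 2 rose and 3 fell. Without 168FARN array 1 or 4T07 array 3, 8 fell, and without 168FARN array 3, 3 rose. The proliferation marker Mki67 changed by -0.16 and the topoisomerase Top2a by 0.27, and neither passed. The members called were Myc, which rose 1.73-fold, and Ccnd2, Cdkn1a, Ccne1 (-0.84), Cdk2 (-0.65) and Cdc6 (-0.49), which fell. The calls of Cdk2 and Cdc6 were lost with 168FARN array 1 alone, and that of Cdc6 also with the 6 arrays fitted alone and without 168FARN array 1 or 3 or 4T07 array 1. Ccnd2, a D-type cyclin, read 10.01, 10.57 and 9.84 in 4T07 and 11.90, 12.07 and 11.99 in 168FARN (3.59-fold lower, adjusted p = 6.88e-06), and the inhibitor Cdkn1a read 8.58, 8.73 and 8.85 on the 4T07 arrays and 10.81, 10.61 and 9.79 on the 168FARN arrays (3.21-fold lower, adjusted p = 0.000199). Cdkn1a is a target of p53, and 9 of 23 p53 targets and regulators fell while 3 rose (2 rose and 7 fell with 168FARN array 1 alone). Eda2r fell from 7.94 ± 0.30 to background, 4.76 ± 0.30; the ubiquitin ligase Mdm2 fell 2.01-fold, Ccng1 2.38-fold and Phlda3 1.89-fold. Perp rose, and it is also a junction gene of the epithelial list. In 67NR and 4T1, Cdkn1a stood at 10.81 ± 0.08 and 8.76 ± 0.35.

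Hox genes were called in both directions, in shares close to those over all genes (11.4% higher and 16.8% lower). Of the Hox genes measured, 6 had both means in the background range. Of 33 measured, 4 rose and 5 fell, 1 rose and 1 fell with 168FARN array 1 alone, 3 fell without 168FARN array 1, 168FARN array 2 or 4T07 array 1, and 2 without 168FARN array 3. Without 4T07 array 3, 2 rose. When each array was centred on its median, 1 Hox gene fell. Hoxa2 read 6.32, 6.15 and 6.64 in the 168FARN tumours against 8.12, 8.52 and 8.21 in the 4T07 tumours (3.77-fold higher, adjusted p = 2.99e-06). The transcription factors Sox4 and Sox9 rose 2.89-fold and 2.01-fold. Of 42 genes of amino acid and antioxidant metabolism 9 rose and 7 fell (8 rose and 2 fell with 168FARN array 1 alone). Slc7a11, the cystine importer, read 8.08, 8.44 and 9.28 in 4T07 and 6.24, 5.42 and 6.82 in 168FARN (5.42-fold higher, adjusted p = 0.000527), and Nqo1, a quinone reductase, went from background, 4.59 ± 0.18, to 6.71 ± 0.57.

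Exon probesets were then compared with the other probesets of their gene, to find parts of genes that did not follow the whole. Of 110320 probesets in 7349 genes, 840 (0.761%) in 509 genes were called by limma's diffSplice, which asked for a relative change of 1 or more besides an adjusted p under 0.05. A splicing index, the limma test of each probeset minus its gene's median on the same array, called 418, and 347 probesets (0.315%) were called by both. The probesets named below were called by both unless stated. Probesets that stayed flat in a gene that changed made up 234 of the 840, and 133 of these were called by both tests. Tinagl1 probeset 5345797 was one, at 11.53, 11.27 and 10.98 on the 4T07 arrays and 10.89, 10.90 and 10.85 on the 168FARN arrays, where its gene rose 13.0-fold. Another 101 in 83 genes changed in a gene that did not, but only 23 of them, in 13 genes, were called by both tests. A further 6 moved at least 1 unit against their gene, 4 of them called by both tests. The exons behind the probesets were not analysed here.

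The gene with the strongest relative changes was Fgfr2, a receptor for fibroblast growth factors whose paired alternative exons are known to differ between epithelial and mesenchymal cells. The gene as a whole rose 2.63-fold. Probeset 5179865 read 8.94, 7.61 and 8.88 in the 168FARN tumours against 3.49, 4.31 and 4.11 in the 4T07 tumours (relative change -5.59, diffSplice adjusted p = 9.73e-45). Probeset 5177161 read 3.68, 4.35 and 4.62 in 4T07 and 8.64, 7.12 and 8.93 in 168FARN (relative change -5.07, diffSplice adjusted p = 1.39e-39). Both were below background on each 4T07 array and well above it on each 168FARN array. The opposite held for probeset 5026159, at 10.52, 10.56 and 10.79 on the 4T07 arrays and 6.97, 6.67 and 6.42 on the 168FARN arrays (relative change 3.22), and for probeset 5355690, at 7.05, 6.99 and 6.65 in the 168FARN tumours against 9.86, 10.05 and 10.27 in the 4T07 tumours (relative change 2.41). Esrp1, a splicing factor of epithelial cells known to act on Fgfr2, read 7.68, 6.84 and 9.55 in 4T07 and 4.91, 4.83 and 4.82 in 168FARN (adjusted p = 0.000404), and Esrp2, its paralogue, rose 1.83-fold (lost with 168FARN array 1 alone).

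**Figure D5:**
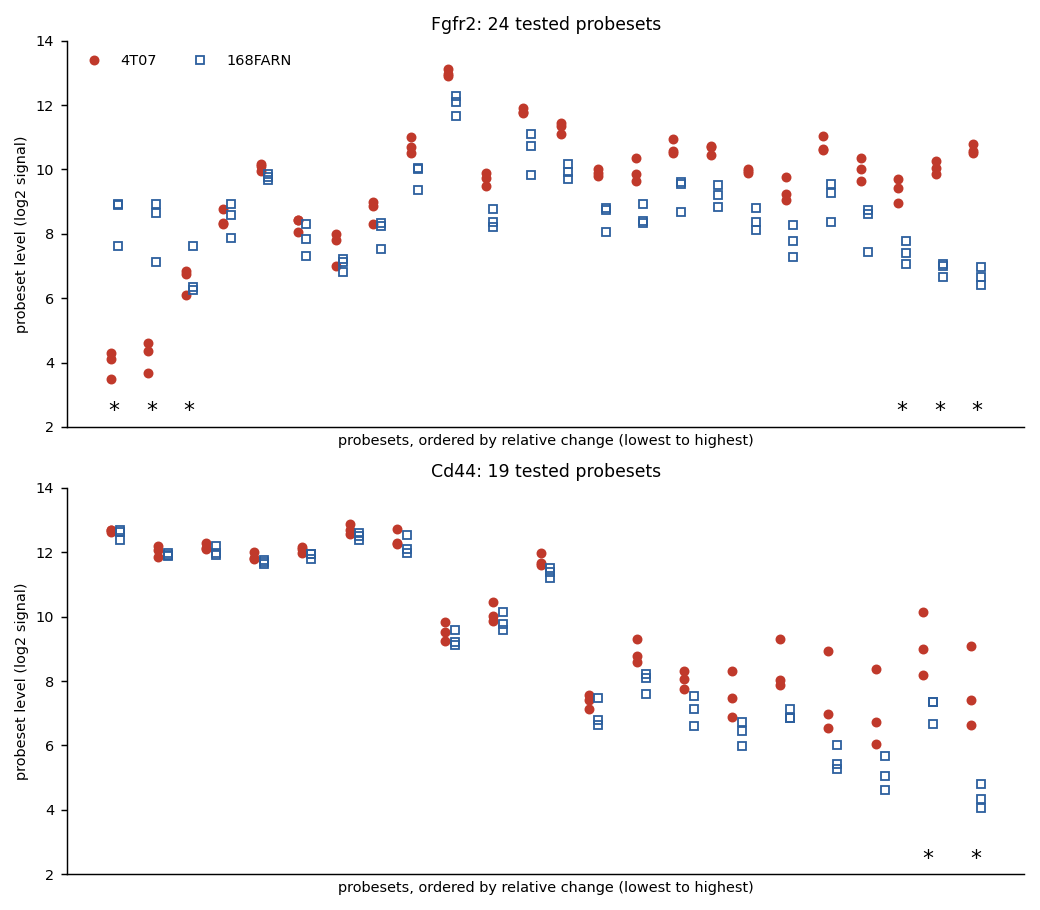
Level of each tested probeset of Fgfr2 (24 probesets, top) and Cd44 (19 probesets, bottom) on each array (y axis, log2 signal), ordered by the relative change of 4T07 against 168FARN from lowest to highest; filled circles are 4T07, open squares 168FARN, and an asterisk marks a probeset called by diffSplice. In Fgfr2 the leftmost pair of probesets are lower in 4T07 and the rightmost ones higher, while in Cd44 the probesets at the right are higher in 4T07 and those at the left are level.

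Cd44, a hyaluronan receptor whose variable exons are also known targets of epithelial splicing factors, behaved otherwise. Its gene level rose 1.68-fold, a call lost without 168FARN array 2 or 4T07 array 3, and probeset 4712893 read 7.42, 6.64 and 9.10 on the 4T07 arrays and 4.07, 4.81 and 4.34 on the 168FARN arrays (relative change 2.60, diffSplice adjusted p = 4.14e-10), with 4T07 array 3 the highest. Fn1, whose gene level did not change, had a single called probeset of 54 tested: 5201971 read 12.45, 11.50 and 12.45 in the 168FARN tumours against 10.61, 10.62 and 10.66 in the 4T07 tumours (relative change -1.49, diffSplice adjusted p = 1.56e-23). In both probesets the lines did not overlap, which follows largely from their being called on the same arrays. Itgb4 probeset 4422167 fell while its gene rose, at 5.41, 4.89 and 5.40 in 4T07 and 6.71, 6.75 and 6.29 in 168FARN. In a list of genes known for alternative exons in epithelia or tumours, 10 of 51 tested had a called probeset (19.6% against 6.93% of all genes in the test), and 7 had one called by both tests (13.7% against 2.69%). A gene with more tested probesets has more chances of a call, so these shares of genes are not like for like. The list's 51 genes held 1433 tested probesets, of which 18 were called by diffSplice and 12 by both tests. Among all 110320 probesets the shares were 0.761% and 0.315%. The other called members were Itga3, Itga6 and Fgfr1, in which the probesets stayed flat while the gene changed, and Ank3, Map3k7 and Rps6kb1, called by diffSplice alone. The call in Ank3 was lost without 4T07 array 1, and that in Rps6kb1 without 168FARN array 2 or 3 or 4T07 array 3.

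Other genes changed in part while their level did not. Rps24, a ribosomal protein whose small last exons are known to be spliced by cell type, had probeset 4561635 at 8.80, 8.72 and 8.72 on the 4T07 arrays and 10.31, 10.22 and 10.49 on the 168FARN arrays (relative change -1.50). Ribosomal protein genes have many near-identical copies, so this probeset may share signal with them. Sptbn1, a spectrin of the membrane skeleton, had probesets that moved in both directions: 4684563 read 7.16, 7.08 and 7.74 in the 168FARN tumours against 8.87, 8.55 and 9.39 in the 4T07 tumours, and 4714648 read 7.80, 7.39 and 8.07 in 4T07 and 9.65, 9.80 and 9.56 in 168FARN. Gcnt2, a glycosyltransferase with alternative first exons, did so too, with 4526195 at 8.08, 7.92 and 9.14 on the 4T07 arrays and 6.68, 6.71 and 6.73 on the 168FARN arrays and 5600462 at 8.35, 8.43 and 7.47 in the 168FARN tumours against 6.14, 5.45 and 7.13 in the 4T07 tumours. In all 5 probesets the lines stood apart by array, which follows largely from their choice after the values were seen. Dmrta2 probeset 5596969 had the largest relative change in a gene that did not pass, at 7.51, 8.32 and 7.76 in 4T07 and 4.39, 3.03 and 3.11 in 168FARN (relative change 3.95). Mbnl3, itself a splicing regulator, rose 3.09-fold while its probeset 5334398 fell, at 5.24, 5.17 and 5.13 on the 4T07 arrays and 6.06, 6.54 and 6.53 on the 168FARN arrays. Of 58 splicing regulators measured, 11 rose and 1 fell (6 rose and 0 fell with 168FARN array 1 alone, 17 rose after quantile normalization, 8 without 168FARN array 2 or 4T07 array 3, and 2 fell without 168FARN array 1 or 2 or 4T07 array 3), with Rbm47 2.94-fold higher and Celf4 2.61-fold higher.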

How the data were processed

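Total RNA of whole primary tumours, extracted with Trizol, was hybridised to Affymetrix mouse exon arrays, 1 per sample, per the labels. The authors deposited 1 value per probeset and array, and its log2 scale was read from the values themselves. The summary method, background correction and normalization are not given in the sources used here, nor are scan dates or slides, so no batch could be tested. Their number, 3 arrays per line, limits the precision. No column of samples was left out (0).

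Of 228090 probesets, 207232 carried 1 gene symbol, 3882 several and 16976 none in the platform annotation, which can be old. Only the first were used, with symbols updated through RefSeq (GRCm38.p6). Gene levels are medians over at least 3 probesets. All 12 arrays entered 1 limma fit (limma 3.58.1, data.table version 1.17.8, R 4.3.3) with moderated variances, the contrast 4T07 minus 168FARN, and Benjamini-Hochberg adjustment over all 15025 genes. Exon probesets were tested with limma's diffSplice after a filter on low probesets (25th percentile) and low genes (50th percentile), in genes with at least 4 such probesets. The scripts were tested on simulated data.

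Groups come from the sample titles. The comparison, its members and the 38 gene lists were chosen with earlier results of these data known. The rule for named genes took the 14 largest rises and falls above background, the 8 highest levels from and to background, the largest called members of each list (up to 8) with members that define it, the 14 largest relative probeset changes and the called probesets of the regulated-exon list. Genes outside it, such as Mmp2 and Adamts1, the single members behind small counts, and the probesets of Rps24, Sptbn1, Gcnt2 and Mbnl3, were chosen after their values were seen. Alternatives covered normalization, summary, filters, the samples fitted, a replicate block, and leaving out each array.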

Additional observations from a re-analysis of the deposited data

How the results depend on the processing

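The count of 4248 called genes became 4777 after quantile normalization, 4587 with arrays centred (48.4% of them higher, against 40.4%), 5076 with means over probesets, 4194 with at least 1 probeset per gene, 4548 with genes below background left out, 4561 with a trended robust prior and 2964 with the 6 arrays fitted alone. Without any one array it lay between 3331 and 4135, with 1393 to 1917 higher, 1881 to 2736 lower, 700 to 902 at least 2-fold higher and 622 to 956 at least 2-fold lower. With 168FARN array 1 alone it was 2112 (999 higher, 1113 lower); that fit has fewer samples. In it Casq1 (0.16), Tnnc2 (0.14), Trdn (0.14) and Ltf (-0.057) reversed; the cause was not tested. Of the 44 genes named by size, 43 kept their call in every alternative and Ighg1 lost it in that fit. Of 493 called genes named or listed, between 50 and 77 lost the call when 1 of the 6 arrays was left out. The 840 exon probesets became 418 by the splicing index, 490 with probesets above the 50th percentile (fewer tested), 2947 with no filter (more tested), 537 with 168FARN array 1 alone, 907 after quantile normalization, 591 with the 6 arrays alone, and 667 to 1083 without any one array.

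Arrays of the same replicate number correlated weakly in their deviations (0.098, 0.0819 and 0.182), yet each array correlated best with the one of its own number. Arrays of different numbers correlated between -0.122 and 0.0142. Whether the numbers mark a pairing cannot be told from these values. With the replicate number as a block, 4354 genes (4107 of them shared with the 4248) and 879 probesets were called, and 13 of the 493 genes lost the call. Levels at or near 5.08 cannot be told from background. No fold is given where the mean of a line was at or below it. Means just above it carry folds that rest on a level near background, as for Sema3d (4T07 at 5.26 ± 0.19) and Fgf10 (4T07 at 5.29 ± 0.07). In S100a9, 168FARN arrays 2 and 3 read below it.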

Other observations

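Mast cell genes beside Cpa3 were looked at after its fall was seen. Fcer1a, a chain of the high-affinity IgE receptor, read 4.35, 5.16 and 4.13 in 4T07 and 6.36, 6.39 and 6.27 in 168FARN (limma adjusted p = 0.000524). Its partner Ms4a2 was in the background range in both means, at 2.65 ± 0.45 and 4.71 ± 0.71 (SD, n = 3 arrays; limma adjusted p = 0.00585). The chymase Cma1 (adjusted p = 0.0635) and the receptor Kit (adjusted p = 0.833) did not pass, with changes of -0.60 and -0.08.

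Several of the largest relative changes of exon probesets were of a probeset that stayed level while its gene moved. Probeset 4506045 of Igf2 changed by -0.36 where the gene changed by -5.43, probeset 5542782 of Twist1 by 0.24 where the gene changed by -3.08, and probeset 4977645 of Pogk by 0.0076 where the gene changed by 3.18. Whether such probesets lie in the transcribed part of the gene was not tested.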
